A study of Mus musculus with 12 samples.

Results

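The inner retina holds the neurons between the photoreceptors and the optic nerve, and 34 genes that mark these neurons were followed in laser-injured and control mouse retinas. They are 10 bipolar cell markers, 9 amacrine cell markers, 3 horizontal cell markers and 12 ganglion cell markers. They were chosen by gene name as class markers, with earlier results of these data known. All 34 were found among the 54367 genes of the deposited tables. Retinas came from wild-type C57BL/6 mice aged 8 to 12 weeks, in which the right eye received laser photocoagulation at 4 positions and the left eye received none and served as the animal's own control. There were 4 groups of 3 retina libraries: laser on day 3, control on day 3, laser on day 7 and control on day 7. All mice were anaesthetised and had dilated pupils, and the lasered and control retinas of a day differ both by the laser and by the side of the body, which cannot be told apart. Retina samples were measured with no stated separation of burned spots from the surrounding tissue. The labels do not state that replicates of equal number came from the same mouse, so the main tests below did not pair the eyes. A replicate block, which pairs libraries of equal number, was run as an alternative. The p-values reflect only how much these libraries vary, which may be technical.

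Bipolar cells carry the photoreceptor signal inwards, horizontal and amacrine cells shape it laterally, and ganglion cells send it to the brain through axons rich in neurofilaments. ON bipolar cells read glutamate through a metabotropic receptor coupled to a G protein and the TRPM1 channel, while most amacrine cells release GABA or glycine. Laser photocoagulation burns the outer retina first, where it heats the pigment epithelium. Several markers are shared between classes: Isl1 is also found in bipolar and cholinergic amacrine cells, Calb1 and Calb2 in several inner retinal classes, Pax6 in amacrine, horizontal and ganglion cells, and Otx2 in photoreceptors as well as bipolar cells. In whole tissue, fewer cells of a class and less RNA per cell cannot be told apart.

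The day 3 libraries held 8738242 to 11879994 reads assigned to genes, recovered from the deposited values, and the deeper day 7 libraries 22683090 to 29487394. The deposited values are read counts scaled for gene length and library size, and a count of 3 reads in 1 kb of exons equals a value between 0.445 and 0.605 in day 3 libraries and between 0.291 and 0.378 in day 7 libraries. Markers of other cells moved in the same retinas: 9 myeloid genes summed to 135 to 287 in laser libraries against 32.4 to 35.1 in control libraries on day 3, and to 286 to 369 against 84.0 to 98.8 on day 7, with 1 and 4 of the 7 tested genes called. Of 6 astrocyte and gliosis genes 5 were tested and 2 were called on each day, with sums from 203 up to 4434 in laser libraries against 39.8 up to 50.9 in control libraries of day 3. Among all genes tested, 0.149% were called on day 3 and 0.244% on day 7. With the replicate block, without a filter, or with a trend with transcript GC content removed, 0 myeloid and 0 gliosis genes were called on day 3. The same held there without any 1 of the control libraries and without laser replicate 3. On day 7 both counts were 0 without laser replicate 3 and without control replicate 3. Without laser replicate 1 or control replicate 1, day 7 had 1 myeloid and 0 gliosis genes called, and without a filter 2 and 0. The 10 rod genes summed to 10450 to 25660 in laser and 22150 to 27980 in control libraries on day 3, and 8 cone genes to 408 to 1797 against 2582 to 2713, with 0 genes called in either list. On day 7 the rod sum was 46680 to 58820 in laser against 61660 to 67350 in control libraries, with 9 of 10 genes lower and 0 called, and the cone sum 1831 to 2119 against 1831 to 2136. Of 7 Müller glia genes, 5 had an unadjusted limma p under 0.05 and were higher in laser on day 3, with 0 called (median log2 fold change 0.55, and 0.39 on day 7). Over all genes tested, 20.7% had such a p and were higher in laser on day 3. The median log2 fold change over all genes was 0.16 on day 3 and 0.06 on day 7. Lens genes reached a sum of 202 in laser replicate 2 of day 3 and 801 in laser replicate 1 of day 7, while control libraries held at most 2.47 and 3.34, and the lens crystallin Cryaa was listed at 0 in control replicate 2 of day 7. The 7 pigment epithelium genes summed to 52.3 to 709.5 in laser and 356 to 543 in control libraries on day 3. Mitochondrial genes held 15.7 to 19.0% of the signal in laser against 20.9 to 22.7% in control libraries on day 3, and 1.10 to 4.21% against 1.49 to 2.54% on day 7. The part of these other cells and of the mitochondrial share in the values below was not tested.

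The markers covered a wide range of levels. On day 3 the most abundant marker of each class, by the mean over libraries, was Gng13 (bipolar), Calb2 (amacrine), Calb1 (horizontal) and Sncg (ganglion), and these 4 genes led on day 7 too. On day 3, 3 markers were near the detection limit: Vsx1 with 13 to 23 reads per library, Pou4f2 with 9 to 13 and Lhx1 with 6 to 15, and they had a mean under 1, the minimum for testing. The homeobox factor Vsx1 had values of 0.897 to 0.986 in laser and 0.677 to 0.753 in control libraries on day 3. On day 7 all 34 markers were tested.

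Levels differed widely between the deposited tables of the days, also in eyes without laser. Slc32a1, the vesicular transporter for GABA and glycine, averaged 197 ± 26.1 in day 7 controls and 0.890 ± 0.197 in day 3 controls (SD, n = 3 each). Thy1, a surface glycoprotein of ganglion cells, averaged 390.3 ± 29.8 in day 7 controls and 9.34 ± 1.42 in day 3 controls (SD, n = 3 each). Nefh, the heavy neurofilament subunit, averaged 129 ± 23.0 in day 7 controls against 4.32 ± 0.361 in day 3 controls, whereas Slc17a6, the vesicular glutamate transporter of ganglion cells, averaged 2.71 ± 1.28 in day 7 controls against 13.4 ± 2.17 in day 3 controls. The day 7 minus day 3 difference of the controls had a median of 1.35 (log2) over the 17 markers with transcripts of 49.8 to 61.9% GC and of -0.03 over the 17 with 36.8 to 49.3% GC. Pearson's r with GC content was 0.546 over the 34 markers and 0.602 over 19470 genes, as a description across genes that share libraries. The days have separate tables, which were normalized separately and differ in depth. Day and table cannot be told apart, so no change with time was read from these levels and each lasered group is set against the controls of its own day.

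**Figure D1:**
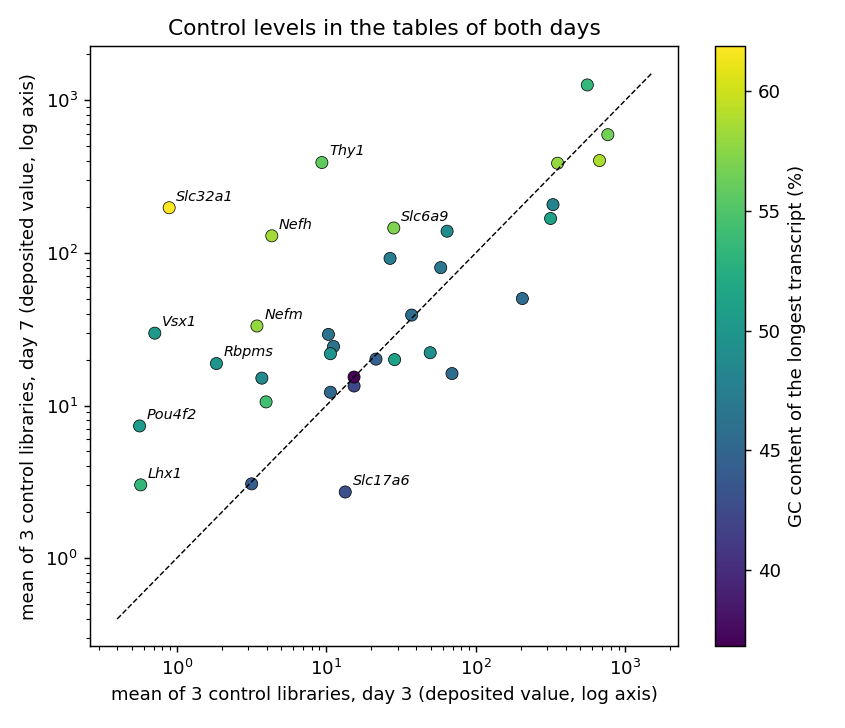
Mean deposited value of each of the 34 markers in the 3 control libraries of day 7 (vertical, log axis) against the 3 control libraries of day 3 (horizontal, log axis), coloured by the GC content of the longest transcript. The dashed line marks equal values. Of the 17 markers with 49.8 to 61.9% GC, 13 had a positive log2 difference, day 7 minus day 3. Slc32a1 and Thy1 of this set lie far above the line, while Gng13 and Sncg of the same set lie below it. Slc17a6, with 42.9% GC, also lies below it.

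The first question was whether inner retinal markers differed between lasered and control retinas. No marker passed on either day. On day 3, 0 of 31 tested markers were called against 0.149% of 16786 genes (25 called), by limma on log2(value + 1) with p-values adjusted by Benjamini-Hochberg over all genes at a threshold of 0.05. The smallest adjusted p of a marker was 0.0915, for Nefl. On day 7, 0 of 34 were called against 0.244% of 15592 genes (38 called), and the smallest adjusted p was 1. At an unadjusted p under 0.05, limma gave 5 markers on day 3 (16.1%), against 23.0% of all genes tested, and 0 markers on day 7, against 3.94% of all genes tested. The 5 were Nefl, Nefm, Car8 and Tfap2b, higher in lasered retinas, where 20.7% of all genes had such a p, and Scgn, lower, where 2.29% had one.

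Fold changes of the markers were spread around 0. On day 3, 15 of 31 markers had a higher and 16 a lower mean in lasered retinas on the log2 scale, with a median of -0.01 beside 0.16 over all genes tested. On day 7, 16 were higher and 18 lower, with a median of -0.01 beside 0.06 over all genes tested. The share of positive fold changes was 48.4% of markers and 68.2% of all genes on day 3, and 47.1% of markers and 61.5% of all genes on day 7. In size, 27 of 31 fold changes on day 3 and 33 of 34 on day 7 were under 0.5, while standard errors ran as low as 0.12 and as high as 0.30 on day 3, and from 0.14 up to 0.46 in the day 7 fit. Differences of a size within these errors were not detectable with 3 libraries per group. Larger ones did not pass either, such as Nefl at 0.77 (SE 0.16) and Car8 at 0.82 (SE 0.23) on day 3.

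**Figure D2:**
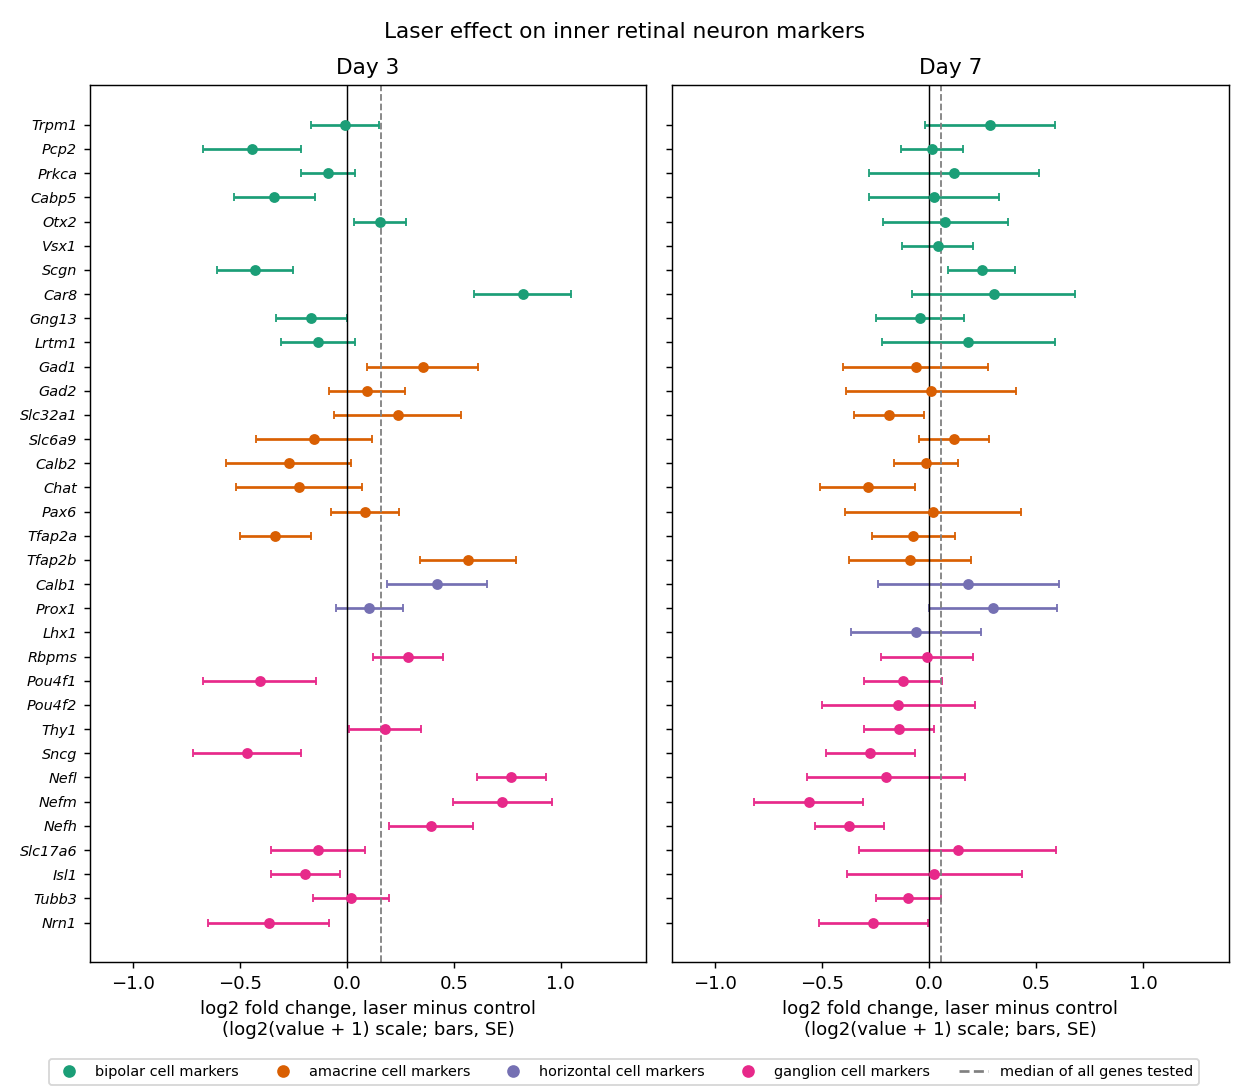
Log2 fold change, laser minus control, of each marker on day 3 (left) and day 7 (right) on the log2(value + 1) scale, with bars for the standard error and colours for the cell class. The dashed line is the median of all genes tested, 0.16 on day 3 and 0.06 on day 7. Points lie on both sides of 0, and Vsx1, Lhx1 and Pou4f2 have no point on day 3 because they were not tested.

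Bipolar cell markers had 2 higher and 7 lower fold changes among 9 tested on day 3, with a median of -0.13, and 9 higher and 1 lower among 10 tested on day 7, with a median of 0.10. The ranges of the laser and control values overlapped for 6 of 10 bipolar markers on day 3 and for 10 of 10 on day 7. Over all tested genes, 31.6% had groups without overlap on day 3 (27.7% with laser above and 3.82% with laser below) and 8.89% on day 7 (6.78% above and 2.11% below). The day 3 median was -0.35 with median-of-ratios rescaling and -0.29 after the median over all genes was subtracted. The day 7 median was -0.08 without laser replicate 2, -0.004 with median-of-ratios rescaling and -0.07 with library weights, so its sign rests on that library and on the scaling.

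Gng13, the gamma subunit of the G protein of ON bipolar cells, had the highest level of the class. On day 3 its values were 552, 705.5 and 539 in laser libraries and 624, 605 and 784 in control libraries, and the groups overlapped. On day 7 they were 456, 304 and 417 in laser and 454, 325 and 427 in control libraries, nearly the same set of values in both groups, with replicate 2 lowest in each. Exons of Chtf18 on the opposite strand cover 51.6% of the Gng13 exon bases, and no source used here says whether counting used the strand. The same limit holds for Pcp2, of whose exon bases 51.5% are shared with Pet100.

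Car8, an inactive relative of the carbonic anhydrases that binds the inositol trisphosphate receptor, had the largest log2 fold change of the markers on day 3 with the pseudocount of 1 used here, while Nefm led with a pseudocount of 0.1 (0.87 against 0.86). Its values were 25.4, 30.6 and 25.6 in laser libraries and 10.3, 18.1 and 17.7 in control libraries. Every laser library was above every control library, and the log2 fold change was 0.82 (SE 0.23), which did not pass (limma adjusted p = 0.113). Control replicate 1 was the lowest library, at -0.743 (log2) from the mean of the other 2 control libraries, and so raised the fold change. On day 7 Car8 had 10.1, 29.3 and 14.7 in laser and 11.0, 17.6 and 11.7 in control libraries. The day 7 groups overlapped, replicate 2 was highest in both, and the fold change of 0.30 was -0.10 without laser replicate 2.

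Scgn, encoding the calcium sensor secretagogin of cone bipolar subtypes, differed the other way on day 3. It had 191, 259 and 290.5 in laser libraries against 355, 313 and 316 in control libraries, with means of 247 ± 50.9 and 328 ± 23.55 (SD, n = 3 each). All laser libraries were lower than all control libraries, laser replicate 1 the lowest, and the log2 fold change of -0.43 (SE 0.18) did not pass (limma adjusted p = 0.209). Without laser replicate 1 it was -0.25. On day 7 Scgn had 239, 285 and 213 in laser and 203.5, 184 and 233 in control libraries, and the groups overlapped.

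The other bipolar markers include parts of the ON pathway and its regulators. Trpm1, the cation channel that the ON pathway opens, averaged 28.5 ± 3.92 in laser and 28.6 ± 3.53 in control libraries on day 3, and 25.5 ± 10.7 against 19.98 ± 4.67 on day 7 (SD, n = 3 each). Prkca, protein kinase C alpha of rod bipolar cells, averaged 9.66 ± 0.313 in laser and 10.3 ± 0.531 in control libraries on day 3. Pcp2 and Cabp5, a G protein modulator and a calcium-binding protein, had log2 fold changes of -0.44 and -0.34 on day 3 and of 0.02 on day 7 for both, with overlapping groups and none passing. Without laser replicate 1 the day 3 values were -0.19 for Pcp2 and -0.15 for Cabp5. Lrtm1, a transmembrane protein with leucine-rich repeats, differed by -0.13 on day 3, or 0.01 without laser replicate 1, and by 0.19 on day 7, or -0.28 without laser replicate 2.

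Promoter sequence is shown for bipolar genes because OTX2, itself a marker of the class, and the related factor CRX bind the letters TAATCC. RefSeq promoters (GRCm38.p6) were matched for 25 of the 34 markers, and TAATCC on either strand stood in the 250 bases before a gene start for 4 of 9 bipolar genes (Cabp5, Lrtm1, Otx2 and Trpm1). Some genes have several starts: counted per promoter, the letters stood in 4 of 17 bipolar promoters (23.5%), against 6.20% of 32536 promoters of the same length. Over all 25 matched markers the count was 6 of 39 promoters (15.4%), with those of Gad1 and Isl1 as the others. The match is a description of letters and not of binding. The 250 bases before the start are given 5′ to 3′ on the plus strand, with TAATCC or its reverse complement GGATTA in capitals, for Cabp5 at chr7:13397905-13398154, Lrtm1 at chr14:29017958-29018207 and Trpm1 at chr7:64153585-64153834.
Cabp5: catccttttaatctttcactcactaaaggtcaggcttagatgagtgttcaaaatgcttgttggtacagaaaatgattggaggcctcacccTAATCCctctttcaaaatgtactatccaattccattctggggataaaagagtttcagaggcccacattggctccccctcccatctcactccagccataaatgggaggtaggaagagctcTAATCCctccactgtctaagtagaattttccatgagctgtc
Lrtm1: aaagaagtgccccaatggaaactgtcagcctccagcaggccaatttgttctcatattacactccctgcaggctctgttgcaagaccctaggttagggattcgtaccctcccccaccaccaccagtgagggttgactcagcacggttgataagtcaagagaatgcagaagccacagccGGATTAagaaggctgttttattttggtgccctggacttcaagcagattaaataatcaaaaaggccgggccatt
Trpm1: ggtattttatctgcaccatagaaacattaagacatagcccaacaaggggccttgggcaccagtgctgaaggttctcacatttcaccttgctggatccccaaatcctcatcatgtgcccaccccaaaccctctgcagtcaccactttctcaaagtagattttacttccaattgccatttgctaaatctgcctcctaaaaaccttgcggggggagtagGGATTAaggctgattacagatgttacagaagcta
Cabp5 holds the letters at 160 to 155 and at 41 to 36 bases before the start, Lrtm1 at 73 to 68 and Trpm1 at 34 to 29.

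Otx2 itself, given because its protein binds these letters, had 63.2, 64.5 and 67.1 in laser libraries and 54.0, 60.4 and 60.2 in control libraries on day 3. The laser libraries were all above the controls by a small margin, the log2 fold change of 0.16 (SE 0.12) was close to the median of all genes, and it did not pass (limma adjusted p = 0.468). With median-of-ratios rescaling it was -0.07 and with quantile normalization -0.09. The 3 genes printed above had log2 fold changes of -0.34 (Cabp5), -0.13 (Lrtm1) and -0.01 (Trpm1) on the same day.

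Amacrine cell markers had 5 higher and 4 lower fold changes among 9 on day 3 (median 0.08) and 3 higher and 6 lower on day 7 (median -0.06). The sign of the day 3 median turned with median-of-ratios rescaling (-0.14), with quantile normalization (-0.14), after a trend with transcript GC content was removed from each library (-0.19) and without laser replicate 3 (-0.04). The day 7 median was -0.33 without laser replicate 2, 0.07 without laser replicate 1, 0.06 without laser replicate 3 and 0.03 without control replicate 2. No direction can be given for the class on either day.

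Calb2, encoding calretinin of amacrine and ganglion cells, had the highest level of the class. On day 3 it had 282, 533 and 648.5 in laser libraries and 559, 526 and 583 in control libraries. The low mean of the laser group came from replicate 1, without which the log2 fold change of -0.27 was 0.08. On day 7 it had 1395, 1241 and 1113 in laser and 1253, 1237 and 1279 in control libraries, with means that differed by less than the spread between libraries (log2 fold change -0.01, SE 0.15).

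The AP-2 transcription factors of amacrine cells gave opposite values on day 3. Tfap2b had 15.1, 16.6 and 17.96 in laser libraries against 7.46, 13.4 and 12.6 in control libraries, with the groups apart and control replicate 1 lowest. Its log2 fold change was 0.57 (SE 0.22; limma adjusted p = 0.191), and 0.32 without control replicate 1. Tfap2a averaged 2.72 ± 0.174 in laser and 3.71 ± 0.650 in control libraries (SD, n = 3 each), with all laser libraries below the controls and a log2 fold change of -0.33 (limma adjusted p = 0.272). On day 7 both overlapped between the groups, Tfap2b with 16.6, 33.6 and 20.3 in laser and 22.4, 30.6 and 20.1 in control libraries.

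Transmitter genes of amacrine cells differed by less than their errors or close to them. Chat, the acetylcholine-synthesising enzyme of starburst amacrine cells, had 1.92, 3.08 and 5.28 in laser and 3.08, 4.23 and 4.57 in control libraries on day 3. On day 7 it had 8.16, 10.4 and 6.98 in laser and 9.03, 12.5 and 10.2 in control libraries, the smallest p of the class that day, with a log2 fold change of -0.29 (SE 0.22; limma adjusted p = 1). The groups overlapped on both days. The GABA-synthesising enzymes Gad1 and Gad2 had log2 fold changes of 0.36 and 0.10 on day 3 and of -0.06 and 0.01 on day 7. The glycine transporter Slc6a9 had -0.15 and 0.12, and Slc32a1 had 0.24 on day 3, from 9 to 30 reads per library, and -0.19 on day 7. Pax6, a homeobox factor of the inner retina, had 0.08 and 0.02. Without laser replicate 1 the day 3 value of Slc6a9 was 0.15 and that of Gad1 0.61, and without laser replicate 2 the day 7 values of Gad1, Gad2 and Pax6 were -0.44, -0.44 and -0.33.

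Horizontal cell markers rested on few genes. Calb1, encoding calbindin, had 23.0, 26.4 and 14.7 in laser libraries and 13.0, 17.2 and 15.9 in control libraries on day 3, and 11.0, 33.3 and 13.3 against 10.8, 20.6 and 14.7 on day 7. The groups overlapped on both days, and the log2 fold changes were 0.42 (SE 0.23; limma adjusted p = 0.315) and 0.19 (SE 0.42). Prox1, a homeobox factor that is also found in AII amacrine and bipolar cells, had 12.3, 11.5 and 10.6 in laser and 9.64, 9.68 and 12.7 in control libraries on day 3, and 10.3, 23.8 and 14.1 against 10.6, 13.8 and 12.2 on day 7. In both genes laser replicate 2 was the highest library of day 7. Prox1 had log2 fold changes of 0.11 on day 3, which was -0.10 with median-of-ratios rescaling, and 0.30 on day 7. The LIM homeobox factor Lhx1 averaged 3.01 ± 1.27 in laser and 3.02 ± 0.173 in control libraries on day 7 (SD, n = 3 each). The class median of 0.19 on day 7 was -0.19 without laser replicate 2 and -0.03 without control replicate 1.

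Ganglion cell markers had 6 higher and 5 lower fold changes among 11 tested on day 3 (median 0.02) and 2 higher and 10 lower among 12 on day 7 (median -0.14). The day 3 median was -0.25 with the GC trend removed, -0.21 with median-of-ratios rescaling, -0.15 with quantile normalization, -0.06 without laser replicate 2 and -0.09 without laser replicate 3. The day 7 median was negative in each scaling tried, at -0.24 with median-of-ratios rescaling and -0.22 with the GC trend removed. With single libraries left out it ran from -0.29 (without laser replicate 2) to -0.04 (without control replicate 2), so its size rests on single libraries. Groups did not overlap for Rbpms, Nefl and Nefm on day 3, each with laser above, and for Nefh on day 7, with laser below. Of all genes tested, 27.7% had laser above in this way on day 3 and 2.11% had laser below on day 7. Over the tested markers of all classes, 25.8% had no overlap on day 3, against 31.6% of all genes. On day 7 the shares were 2.94% and 8.89%.

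Neurofilament subunits build the axon skeleton of ganglion cells, and none of their 3 genes passed on either day. Nefl, the light subunit (ENSMUSG00000022055, chromosome 14, 68083863 to 68089095), had 97.25, 127 and 106 in laser libraries and 54.6, 66.85 and 71.3 in control libraries on day 3. All laser libraries were above all controls, with means of 110.2 ± 15.2 and 64.2 ± 8.64 (SD, n = 3 each) and a log2 fold change of 0.77 (SE 0.16) that did not pass (limma adjusted p = 0.0915). With weights for library quality it passed, at 0.88 (limma adjusted p = 0.0428), in a fit that called 2.2% of all genes, and its adjusted p over the other alternatives ran from 0.0611 (without laser replicate 1) to 0.301 (without control replicate 1). On day 7 Nefl had 77.7, 206 and 100.3 in laser and 118.5, 187 and 110.0 in control libraries, with replicate 2 highest in both groups and the groups overlapping.

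Nefm, the medium subunit (ENSMUSG00000022054, chromosome 14, 68082590 to 68124846), had 4.86, 8.06 and 6.14 in laser libraries and 2.41, 3.70 and 4.20 in control libraries on day 3. The groups were apart, with a log2 fold change of 0.73 (SE 0.23; limma adjusted p = 0.136), which was 0.37 with the GC trend removed. Control replicate 1 was the lowest library, at -0.535 (log2) from the mean of the other 2 control libraries. On day 7 it had 21.0, 18.5 and 24.9 in laser and 24.2, 46.0 and 29.4 in control libraries. Laser replicate 3 lay above control replicate 1, control replicate 2 was the highest, and the log2 fold change was -0.56 (SE 0.25; limma adjusted p = 1), or -0.31 without control replicate 2. The exons of Nefl and Nefm overlap on opposite strands by 1108 bases, 32.8% of the exon bases of Nefl and 19.2% of those of Nefm, so reads there may have been counted for either gene.

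Nefh (ENSMUSG00000020396, chromosome 11, 4938754 to 4948064), which shares no exon bases with them, had 7.445, 6.43 and 4.43 in laser and 4.55, 3.905 and 4.50 in control libraries on day 3. Laser replicates 1 and 2 were above the controls and replicate 3 was among them, with a log2 fold change of 0.40 (SE 0.20; limma adjusted p = 0.274) that was 0.02 with the GC trend removed. On day 7 it had 102, 91.2 and 103 in laser libraries and 105, 151 and 131 in control libraries. Every laser library was below every control library, and the log2 fold change of -0.37 (SE 0.16), the smallest p of a marker on day 7, did not pass (limma adjusted p = 1; 0.646 with the replicate block).

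**Figure D3:**
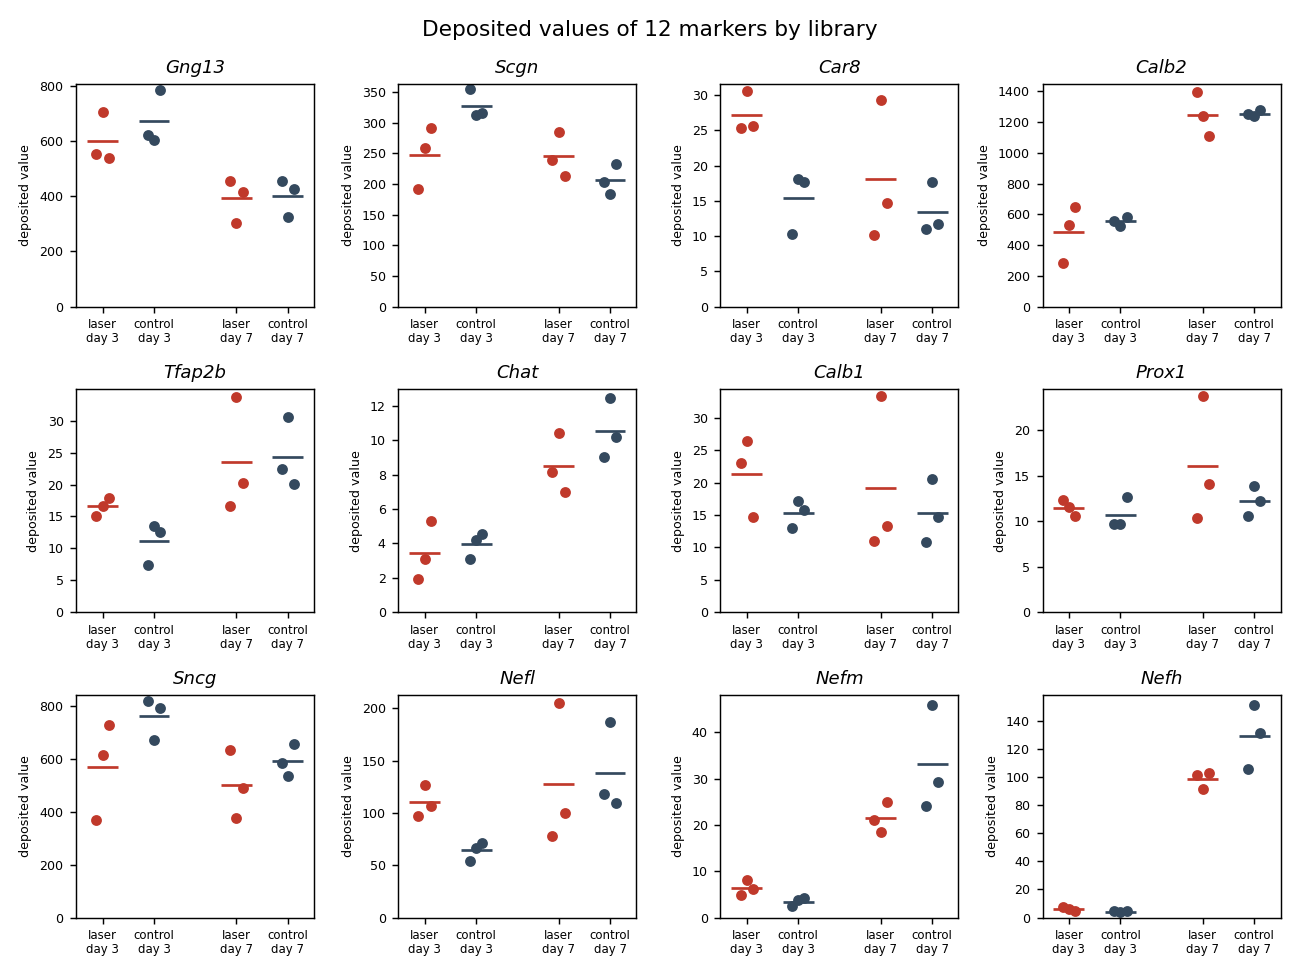
Deposited value (vertical, linear axis from 0) in each library for 12 markers, with laser left of control on each day, points for libraries and lines for group means of 3 libraries. On day 3 the groups do not overlap for Scgn, Car8, Tfap2b, Nefl and Nefm, and on day 7 for Nefh.

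Among the remaining ganglion markers Sncg, encoding gamma-synuclein, had the highest level. It had 371, 617 and 727 in laser libraries and 821, 672 and 795 in control libraries on day 3, and 635, 376 and 490 against 585.5, 537 and 658 on day 7. The laser means were lower on both days and the groups overlapped, with log2 fold changes of -0.47 (SE 0.25; limma adjusted p = 0.309) and -0.27 (SE 0.21). Without laser replicate 1 the day 3 value was -0.18. Rbpms, an RNA-binding protein of ganglion cells, averaged 2.46 ± 0.196 in laser and 1.84 ± 0.203 in control libraries on day 3 (SD, n = 3 each; log2 fold change 0.28, limma adjusted p = 0.334), and 18.7 ± 3.65 against 18.8 ± 3.68 on day 7.

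The POU-domain factors Pou4f1 and Pou4f2 specify ganglion cells. Pou4f1 averaged 7.42 ± 0.396 in laser and 10.7 ± 3.97 in control libraries on day 3 and 19.7 ± 0.164 against 21.8 ± 4.57 on day 7 (SD, n = 3 each). Its control libraries ranged more widely than its laser libraries on both days. The log2 fold changes were -0.41 (SE 0.27; limma adjusted p = 0.391) on day 3 and -0.12 on day 7. Control replicate 2 was its lowest library on day 3. Without it Pou4f1 had the smallest p of the markers that day and did not pass (limma adjusted p = 0.139). Pou4f2 averaged 6.10 ± 1.28 in laser and 7.35 ± 4.09 in control libraries on day 7. The neuronal tubulin Tubb3, the LIM homeobox factor Isl1, the neurite growth protein Nrn1, Slc17a6 and Thy1 had log2 fold changes of 0.02, -0.19, -0.36, -0.13 and 0.18 on day 3 and of -0.10, 0.03, -0.26, 0.14 and -0.14 on day 7, all with overlapping groups. The day 3 values without laser replicate 1 were -0.05 for Nrn1, -0.07 for Isl1, 0.07 for Slc17a6 and 0.21 for Tubb3. Without laser replicate 2 the day 7 values were -0.41 for Isl1 and -0.35 for Slc17a6.

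The second question was whether the laser effect differed between the days. In one limma fit over 12 libraries, 0 of 34 markers and 0 of 17611 genes (percent called 0) passed for the laser effect on day 7 minus that on day 3. The smallest adjusted p was 0.171 over all genes and 0.396 over the markers. At an unadjusted p under 0.05 there were 3 of 34 markers (8.82%) and 1654 of 17611 genes (9.39%). Of all 17611 genes, 0.96% had such a p with a higher signed laser effect on day 7 and 8.43% with a lower one. The median difference was 0.02 over the markers and -0.11 over all genes.

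The 3 markers were Nefm, Nefh and Scgn. The laser effect on Nefm was -0.56 on day 7 and 0.73 on day 3, a difference of -1.29 (SE 0.37; limma adjusted p = 0.396). For Nefh it was -0.37 and 0.40, a difference of -0.77 (SE 0.27; limma adjusted p = 0.416), and for Nefl -0.20 and 0.77, a difference of -0.97 (SE 0.45; limma adjusted p = 0.532). Scgn differed the other way, with 0.25 on day 7 and -0.43 on day 3 (difference 0.67, SE 0.25; limma adjusted p = 0.456). The neurofilament differences kept their sign in each alternative run, which does not measure stability. Filters and the replicate block leave fold changes as they were and could not turn it. Nefl and Nefm also share exon bases. With weights for library quality 4 of 34 markers passed in a fit that called 6.35% of all genes (1119 of 17611), and estimation of the weights stopped before its convergence tolerance in some of the weighted fits. These markers were Nefm at -1.12 (limma adjusted p = 0.0205), Nefl at -1.04 (0.0235), Nefh at -0.66 (0.0399) and Gad1 at -0.87 (0.0446). With the GC trend removed the difference was -0.91 for Nefm and -0.36 for Nefh, and neither passed.

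Single libraries set much of the spread of the markers. On day 3 laser replicate 1 was the lowest of the 6 libraries for 14 of the 34 markers, and its class medians relative to the control mean were -0.27 (bipolar), -0.15 (amacrine), 0.38 (horizontal) and -0.36 (ganglion), while the median over all genes was 0.21. The same library had the lowest rod and cone medians, -1.27 and -1.56, against 0.02 and -0.34 in laser replicate 2 and -0.29 and -0.49 in laser replicate 3. Without it the class medians of day 3 were -0.08 (bipolar), 0.11 (amacrine), 0.20 (horizontal) and 0.08 (ganglion). On day 7 laser replicate 1 was lowest for 15 markers and laser replicate 2 highest for 18. With 1 library left out at a time, 9 of 31 marker fold changes turned sign on day 3 for at least 1 library, 7 of them without laser replicate 1. On day 7 it was 27 of 34, 16 of them without laser replicate 2.

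**Figure D4:**
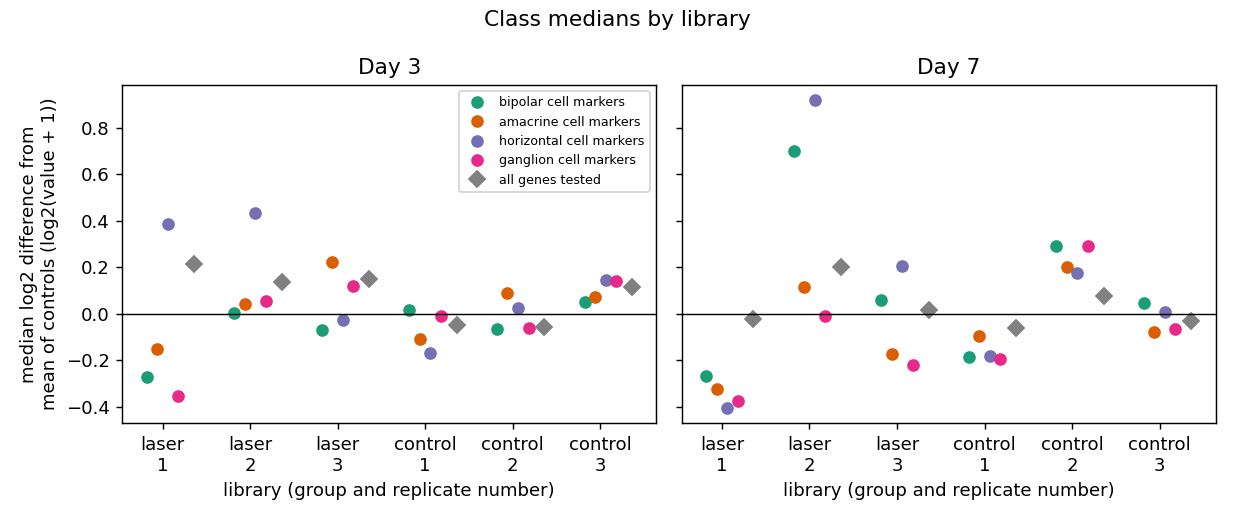
Median over each class of the log2(value + 1) difference from the mean of the control libraries (vertical) for each library of day 3 (left) and day 7 (right), with laser libraries left of control libraries and diamonds for all genes tested. On day 7 the bipolar and horizontal medians of laser replicate 2 lie at 0.70 and 0.92, above those of the other libraries.

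The position of replicate 2 on day 7 moved with the GC content of the markers' transcripts. In the 17 markers of 36.8 to 49.3% GC, laser replicate 2 exceeded the mean of the other 2 laser libraries in 17 of 17 markers (median 1.05 on the log2 scale), and control replicate 2 exceeded the other 2 control libraries in 16 of 17 (median 0.51). In the 17 markers of 49.8 to 61.9% GC the counts were 7 of 17 (median -0.07) in laser and 8 of 17 (median -0.03) in control libraries. Across the 34 markers Pearson's r with GC content was -0.886 for laser replicate 2 and -0.517 for control replicate 2, beside -0.675 and -0.494 over 15592 genes. These describe single libraries across genes. The laser minus control fold changes of day 7 had r = -0.584 with GC content over the markers and -0.190 over all genes, while those of day 3 had r = -0.078 over 31 markers. Removing a GC trend from each library changed the sign of 9 of 34 marker fold changes on day 7 and 6 of 31 on day 3, and left 0 markers called on both days.

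**Figure D5:**
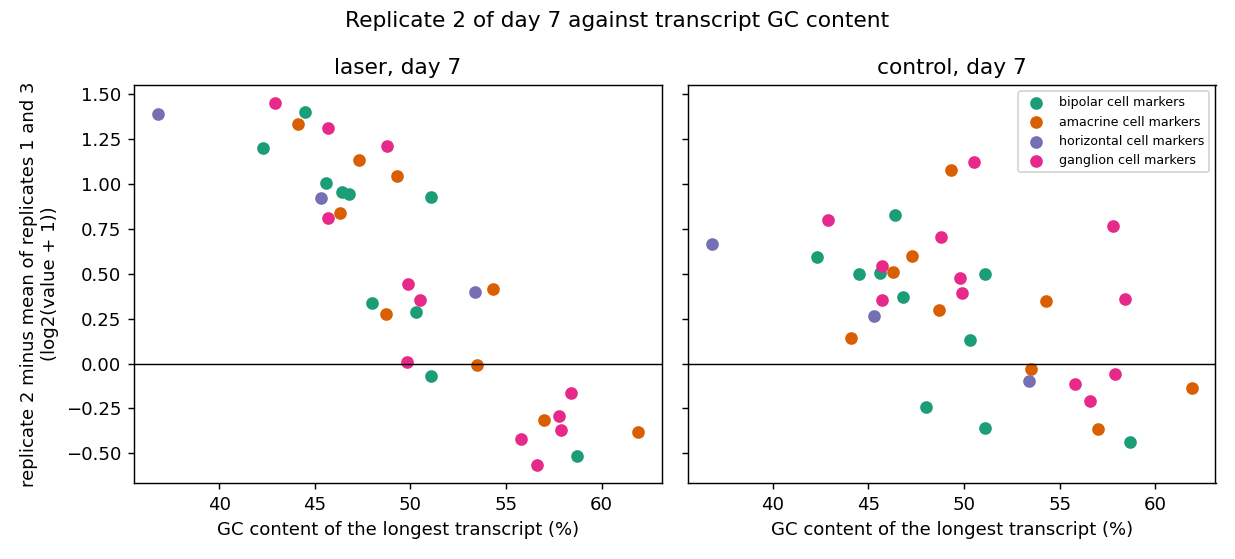
Difference of replicate 2 from the mean of replicates 1 and 3 (vertical, log2(value + 1)) against the GC content of the longest transcript (horizontal, percent) for the 34 markers in laser (left) and control (right) libraries of day 7. Of the 17 markers of 36.8 to 49.3% GC, 17 lie above 0 in the laser group and 16 in the control group. The slope is steeper in the laser group.

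Beyond the 34 markers, 43 further genes of the same classes, from the ON bipolar cascade, amacrine transmitters and peptides and ganglion subtypes, were read from the same fits. On day 3, 0 of 32 tested were called (18 higher, 14 lower, median 0.06), and on day 7, 0 of 37 (13 higher, 24 lower, median -0.04). Of all genes tested, 0.149% were called on day 3 and 0.244% on day 7. Positive fold changes made up 68.2% and 61.5% of all genes, with medians of 0.16 and 0.06. Cartpt, a peptide precursor of a ganglion cell subtype, had the smallest adjusted p of day 3, with 86.0, 103 and 100.4 in laser libraries and 55.5, 73.0 and 62.7 in control libraries. The groups were apart, with a log2 fold change of 0.60 (limma adjusted p = 0.101), and on day 7 it was -0.18 with means of 501 ± 52.1 and 565 ± 53.7 (SD, n = 3 each). Chrna6, a nicotinic receptor subunit of ganglion cells, differed by -0.65 on day 3 and Eomes, a factor of intrinsically photosensitive ganglion cells, by -0.45 on day 7, with the laser libraries below the controls in each case. The value of Chrna6 was -0.25 without laser replicate 1, and without control replicate 2 that of Eomes was -0.21.

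Of the homeobox factors of bipolar cells, Sebox differed by -0.35 on day 3 and Irx5 by 0.27 on day 7. Among amacrine peptides Sst, somatostatin, averaged 17.98 ± 3.67 in laser and 28.0 ± 6.12 in control libraries on day 3 (log2 fold change -0.61, limma adjusted p = 0.155) and differed by -0.54 on day 7. Tac1, the precursor of substance P, differed by 0.34 on day 3, and Nos1, nitric oxide synthase of a wide-field amacrine type, by -0.37 on day 7. The horizontal cell connexin Gja10 differed by -0.37 on day 3 and 0.09 on day 7, and the septin Sept4 by -0.32 and -0.004. Without laser replicate 1 the day 3 value of Sept4 was 0.08 and that of Sebox -0.20, without laser replicate 2 the day 7 value was -0.27 for Sst and -0.10 for Gja10, and without control replicate 2 that of Nos1 was -0.21. Without control replicate 1 the day 7 value was -0.33 for Sst and -0.05 for Gja10.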

How the data were processed

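Poly(A) RNA of 12 retina libraries was sequenced from a directional kit, per the labels' protocols. Per the submitters' processing notes, STAR 2.7.0, edgeR 3.28.0 and mm10 were used, for steps that are not described. How reads were counted, with or without strand and on which annotation, is not stated in these sources. The authors deposited 1 table of signal per gene for each day, named TPM, with column sums of 953049 to 1045986, so they were not treated as TPM, the unit assumed when the tests were set; the same test was kept. Multiplied by union exon length (GENCODE M21; 53681 of 54367 genes with equal bounds), the deposited signal gave whole multiples of 1 step per library after a factor of 6 values cycling with row position was taken out. It ran from 0.955 to 1.04 on day 3 and 0.962 to 1.05 on day 7. Of values under 20 reads, 99.75% to 99.84% were whole within 0.05. In total 0 value columns lacked a sample.

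Each day was fitted separately with limma 3.58.1 (R 4.3.3; trended eBayes, 2-sided) on log2(value + 1), keeping genes that averaged 1 or more. Benjamini-Hochberg adjustment ran over all genes, with a threshold of 0.05. Fold changes of low genes are understated on this scale. The difference between days was an interaction over 12 libraries. The fit was tested on simulated data. Alternatives were another pseudocount and filters, median-of-ratios and quantile scaling, library weights, voom on recovered reads, a joint fit, a replicate block, leaving out each library and, added after the data were seen, undoing the cyclic factor, subtracting the all-gene median and removing a GC trend.

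Same-numbered libraries deviated together on day 7 (correlations across genes of 0.485, 0.559 and 0.128) but not on day 3 (0.041, 0.016 and 0.077); the design text makes the left eye the control of the right eye of each mouse.

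The markers and lists were chosen with earlier results of these data known. Values per library are given for markers called on either day or in the interaction, those with an unadjusted p under 0.05, and those of smallest p and highest mean per class and day; of the further genes, the 2 of smallest p per class and day. Some genes named by this rule have no values in the text. Coordinates are 1-based on mm10. Figures and sequence counts used matplotlib 3.10.9, NumPy 2.4.6 and pandas 2.3.3 under Python 3.11.15.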

Additional observations from a re-analysis of the deposited data

How the results depend on the processing

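No marker was called on either day in any alternative, apart from Nefl on day 3 with library weights (1 marker called), and with library weights 4 markers were called for the difference between the days. Of the marker fold changes recomputed, 1831 moved by less than the spread between libraries, 69 moved by more and 5 passed with library weights. The first count does not measure stability. Leaving out 1 of 3 libraries cannot move a fold change by more than this spread. Filters, the replicate block and the joint fit leave fold changes as they were. For at least 1 left-out library, 27 of 34 marker fold changes turned sign on day 7 and 9 of 31 on day 3. The weights fit stopped before its convergence tolerance was reached.

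Counts over all genes moved more. On day 3 the 25 calls became 0 without a filter, 14 with median-of-ratios rescaling, 12 with quantile normalization, 0 with the replicate block, 369 with library weights, 13 with voom on recovered reads, 1016 in the joint fit, 1 with the GC trend removed and 0 with the block and GC trend together. Leaving out 1 library gave 0 to 294, the highest without laser replicate 1. On day 7 the 38 calls became 13 without a filter, 24 with median-of-ratios rescaling, 114 with library weights, 15 with voom, 22 in the joint fit and 75 with the GC trend removed, and 0 to 41 with 1 library left out. With the replicate block day 7 had 53 calls and 0 markers, and the block changed no call of a marker. For the difference between the days the 0 calls became 2 with a pseudocount of 0.1, 28 without a filter, 1119 with library weights and 0 to 3 with 1 library left out. Voom and the joint fit were not run for this difference.

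The bipolar median of day 3 was -0.349 with median-of-ratios rescaling, -0.348 with quantile normalization and -0.292 with the all-gene median subtracted. The amacrine median of day 3 was -0.139 with median-of-ratios rescaling, -0.143 with quantile normalization and -0.191 with the GC trend removed, with or without the replicate block. The ganglion median of day 3 was -0.251 with the GC trend removed, with or without the block. The amacrine median of day 7 ran from -0.33 to 0.072 with 1 library left out. Rescaling shifted the median over all genes on day 3 from 0.159 to -0.026 with median-of-ratios and -0.068 with quantile normalization. The cause was not tested. With 3 libraries per group and 6 to 30 reads for the rarest markers on day 3, small differences were not detectable.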

Other observations

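Other letters were counted in the same 39 promoters (250 bases) of the 25 matched markers, on both strands. GGGCGG, the letters bound by SP1-like factors, stood in 14 of 39 (35.9%), among them 5 of 7 promoters of ganglion cell markers (71.4%: Pou4f1, Pou4f2, Slc17a6, Sncg and Tubb3), against 33.0% of 32536 promoters. CCAAT stood in 13 of 39 (33.3%) against 33.8%, CAGCTG in 4 of 39 (10.3%) against 13.1% and TATAAA in 4 of 39 (10.3%) against 12.3%. These counts are descriptions of letters, with no test.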
